A study of Mus musculus with 8 samples.

Results

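The hexosamine pathway and the cycling of O-GlcNAc were followed through 8 genes, Gfpt1, Gfpt2, Gnpnat1, Pgm3, Uap1, Uap1l1, Ogt and Mgea5, out of 46983 genes in the expression table of mouse hippocampus. They were taken by gene symbol, with earlier results of these data known, and each symbol matched 1 row. Bulk RNA-Seq was done on 4 XBP1s-TG libraries (S1 to S4) and 4 Control libraries (S5 to S8). XBP1s-TG mice carried both TRE-XBP1s and Camk2a-tTA. The Control label states no genotype beyond that word. All mice were C57BL/6, 2 months old, and the RNA was taken 7 days after removal of doxycycline (Dox), which holds the transgene off. The Camk2a promoter drives the activator mainly in forebrain excitatory neurons, all XBP1s-TG mice descend from 1 transgene insertion, and the hippocampal RNA also holds that of glia and vessels.

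The hexosamine pathway diverts a part of glucose metabolism into UDP-GlcNAc, the sugar donor for N-glycans, proteoglycans and other sugar chains made in the endoplasmic reticulum (ER) and Golgi. Gfpt1 and its paralog Gfpt2 encode the enzymes of the first committed step, which moves the amide nitrogen of glutamine onto fructose 6-phosphate. Gnpnat1 acetylates the product, Pgm3 shifts its phosphate, and Uap1 joins it to UDP, while Uap1l1 is a paralog of Uap1. In the cytosol and nucleus, Ogt places single GlcNAc residues from UDP-GlcNAc on serine and threonine, and Mgea5 (also named Oga) removes them, a cycle that is active in neurons. Xbp1s is the spliced, active form of a transcription factor of the unfolded protein response, and its family of binding sites contains the letters ACGT or CCACG.

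Promoter windows are shown for both paralogs of the first step and for Pgm3 and Uap1, since the results below turn on how differently these 4 changed. The sequences are from RefSeq (GRCm38.p6), run 5′ to 3′ on the strand of the gene from 250 bases before its start to 30 after it, and capitals mark CCACG (or CGTGG, its other strand) and ACGT. Windows were found for 6 of the 8 genes, all but Gnpnat1 and Uap1l1. The Gfpt1 window is chr6:87042596-87042875 (plus strand), that of Gfpt2 chr11:49793905-49794184 (plus strand), that of Pgm3 chr9:86571813-86572092 (minus strand) and that of Uap1 chr1:170174935-170175214 (minus strand).
Gfpt1: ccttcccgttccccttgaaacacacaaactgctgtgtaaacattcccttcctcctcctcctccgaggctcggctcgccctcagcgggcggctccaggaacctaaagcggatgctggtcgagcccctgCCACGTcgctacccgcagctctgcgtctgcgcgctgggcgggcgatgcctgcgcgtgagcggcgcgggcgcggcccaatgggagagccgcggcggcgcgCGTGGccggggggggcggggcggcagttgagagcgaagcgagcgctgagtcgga
Gfpt2: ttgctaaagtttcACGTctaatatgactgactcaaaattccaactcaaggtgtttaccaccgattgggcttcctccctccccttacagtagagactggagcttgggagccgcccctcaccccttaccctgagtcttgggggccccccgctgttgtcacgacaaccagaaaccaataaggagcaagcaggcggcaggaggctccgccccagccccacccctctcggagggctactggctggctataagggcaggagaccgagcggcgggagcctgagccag
Pgm3: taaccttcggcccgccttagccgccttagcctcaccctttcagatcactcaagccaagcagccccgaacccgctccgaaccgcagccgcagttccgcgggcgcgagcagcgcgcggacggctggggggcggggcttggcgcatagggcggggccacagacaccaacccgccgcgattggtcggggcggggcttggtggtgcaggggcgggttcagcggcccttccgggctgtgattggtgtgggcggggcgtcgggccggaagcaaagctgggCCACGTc
Uap1: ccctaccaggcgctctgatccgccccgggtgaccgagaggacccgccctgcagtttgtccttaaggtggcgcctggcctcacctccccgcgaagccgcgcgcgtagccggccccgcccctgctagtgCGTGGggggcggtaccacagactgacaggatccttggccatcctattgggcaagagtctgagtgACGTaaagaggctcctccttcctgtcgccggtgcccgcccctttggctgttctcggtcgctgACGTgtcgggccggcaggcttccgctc

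CCACG stood in the windows of Gfpt1 (from -123 to -119 and, on the other strand, from -24 to -20), Pgm3 (24 to 28) and Uap1 (-123 to -119, other strand), counted from the start. It was not found in the windows of Gfpt2, Ogt or Mgea5. Gnpnat1, which is among the genes that rose, and Uap1l1 had no window to search. Searched over both strands from 250 bases before to 50 bases after the start, the same letters were in 32.8% of 32851 promoters, in 48.1% of those of genes tested below and in 60.8% of those of genes that rose. ACGT was in 1 window of each of the 6 genes and not in the second window of Ogt. It was in 40.1% of the promoters of tested genes and 55.7% of those of genes that rose. In Gfpt1 and Pgm3, CCACG and ACGT overlapped in the run CCACGT. Among the 6 genes, only Uap1 held TGACGTG (2 to 8), a run found in 2.97% of the promoters of tested genes. The longer elements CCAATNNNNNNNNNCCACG and ATTGGNCCACG were in none of the 6, against 0.148% and 0.0738% of those promoters. These letters were chosen for the search after the windows had been seen, and a match is a description of the window only.

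The 8 libraries held 34873190 to 52134178 reads assigned to genes. Xbp1, whose value sums transgene and endogenous transcripts, was at 786, 549, 1094 and 729 TPM (a level scaled for transcript length and for the library) in S1 to S4 and at 68.9 to 71.9 TPM in Control. Markers of excitatory neurons (5 genes) summed to 4373 to 5097 TPM in XBP1s-TG and 5573 to 6329 TPM in Control, and of the 5 Neurod6 fell (log2 fold change -0.94), while Slc17a7, the vesicular glutamate transporter, was at 0.16 (limma adjusted p = 0.0161), short of 1.5-fold. In bulk RNA, fewer cells of a type and less RNA per cell cannot be told apart. Markers of choroid plexus (5 genes) summed to 80.6 TPM in S1 and 174 TPM in S3, against 3973 to 9030 TPM in the other 6 libraries, so results are also given without S1 and S3. Microglia markers (5 genes) summed to 143 to 161 TPM against 163 to 180 TPM, the sums of interneuron, astrocyte, oligodendrocyte and endothelial markers overlapped between the groups, and those of liver were at 0.633 TPM or less. The part of these differences in the results below was not tested.

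Gfpt1, Pgm3 and Gnpnat1 rose in XBP1s-TG hippocampus, and no gene of the 8 fell. A gene was called when limma gave a Benjamini-Hochberg adjusted p under 0.05 and the quantile normalized log2(TPM + 2) values differed at least 1.5-fold. Of the 8 genes, 6 passed a limit of 4 on this normalized log2 scale (14 TPM where normalization leaves a value as it is) in at least 1 library and were tested, and 3 of the 6 rose, against 5.61% of all 9270 genes tested, while 0 of 6 fell, against 2.75%. Pgm3 passed the limit through its 4 XBP1s-TG libraries alone, and Gnpnat1 passed it in 4 XBP1s-TG and 2 Control libraries after normalization. Gfpt2 and Uap1l1 stayed under the limit in all 8 libraries and were compared by an exact permutation test. The median log2 fold change of the 6 tested genes was 0.67, beside -0.04 over all tested genes. The 6 leave out Gfpt2 and Uap1l1. Fitted without the limit, the median of all 8 was 0.32, beside -0.007 over 29237 genes. In that fit 3 of the 8 rose and 0 fell, while 708 of the 29237 genes rose and 293 fell.

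**Figure D1:**
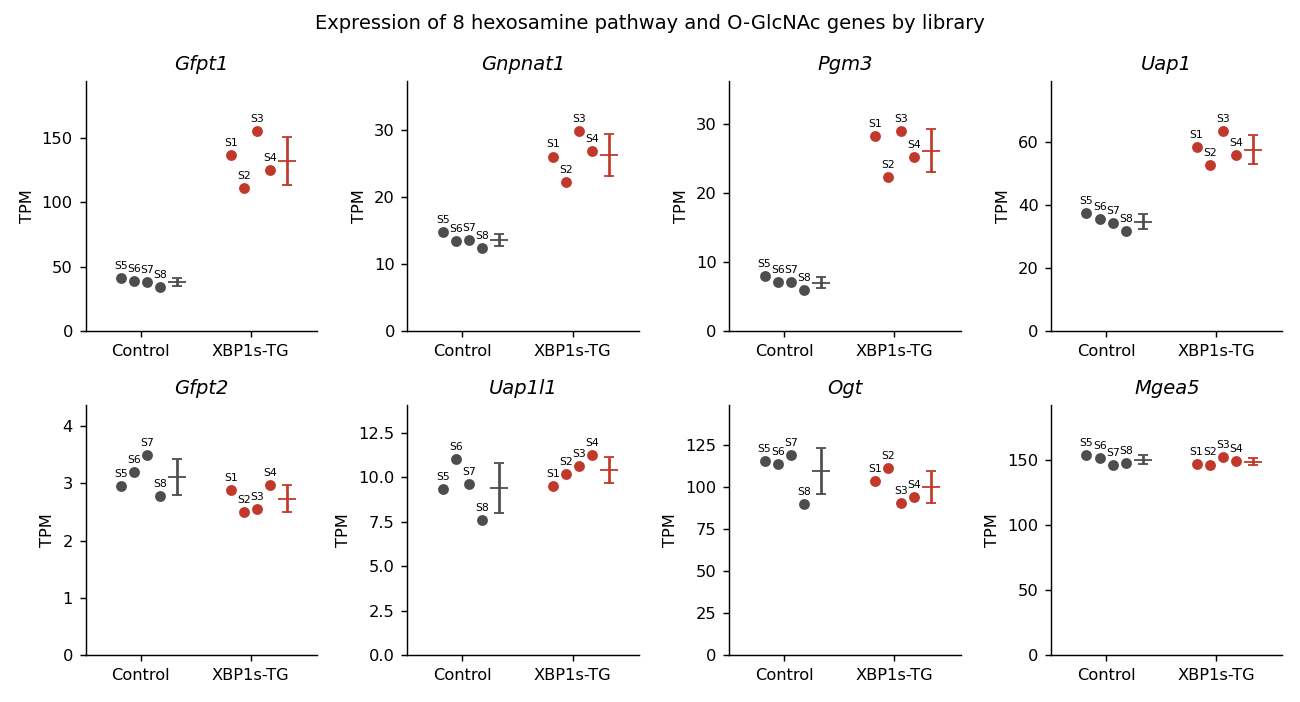
TPM of the 8 genes in each Control (grey) and XBP1s-TG (red) library, with the mean and SD of 4 libraries beside the points. Gfpt1, Gnpnat1, Pgm3 and Uap1 lie higher in every XBP1s-TG library than in any Control library, and the groups overlap for Gfpt2, Uap1l1, Ogt and Mgea5.

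Gfpt1 (ENSMUSG00000029992, chromosome 6, 87042846 to 87092197, plus strand of GRCm38) carries the first, rate-limiting step. Its level was 136, 111, 155 and 125 TPM in S1 to S4 and 41.3, 38.7, 38.5 and 34.0 TPM in S5 to S8. The groups did not overlap, and the lowest XBP1s-TG library stood well above the highest Control library. The mean of 131.9 ± 18.6 TPM (SD, n = 4) was 3.46 times the Control mean of 38.1 ± 3.02 TPM (SD, n = 4). The log2 fold change on the normalized scale was 1.61 (standard error 0.0788, 95% interval 1.43 to 1.79, limma adjusted p = 1.86e-06). These values rest on 10291 to 14012 reads in XBP1s-TG and 3085 to 5073 in Control. Without S1 and S3 the log2 fold change was 1.48 (limma adjusted p = 1.19e-05).

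Gfpt2 (ENSMUSG00000020363, chromosome 11, 49794178 to 49838613, plus strand) encodes the second enzyme of this step and was the least abundant of the 8. It was at 2.88, 2.50, 2.56 and 2.98 TPM in S1 to S4 and at 2.95, 3.20, 3.50 and 2.78 TPM in S5 to S8. The groups overlapped, with S7 highest and S2 lowest. The mean was 2.73 ± 0.237 TPM against 3.11 ± 0.313 TPM (SD, n = 4 each), a difference of -0.11 on the log2(TPM + 2) scale (exact two-sided permutation test, p = 0.143). Fitted without the limit, its log2 fold change was -0.14 with a 95% interval of -0.29 to 0.01 (limma adjusted p = 0.209). Between 174 and 273 reads per library were assigned to the gene.

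The paralogs differed in their change. For each library the log2(TPM + 2) of Gfpt2 was subtracted from that of Gfpt1, and this difference averaged 4.81 ± 0.210 in XBP1s-TG and 2.97 ± 0.111 in Control (SD, n = 4 each). The 2 changes thus differed by 1.84 (p = 0.0286 by the exact two-sided permutation test, which cannot go lower with 4 libraries against 4, and 0.0429 adjusted over the 3 gene pairs compared). The TPM of Gfpt1 was 41.9 to 60.7 times that of Gfpt2 in XBP1s-TG and 11.0 to 14.0 times in Control. Gfpt1 made up 97.9% ± 0.308 of the summed TPM of the paralogs in XBP1s-TG and 92.4% ± 0.689 in Control (SD, n = 4 each), so it was the major transcript in both groups. The sum itself was 134.6 ± 18.6 TPM against 41.2 ± 3.14 TPM.

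**Figure D2:**
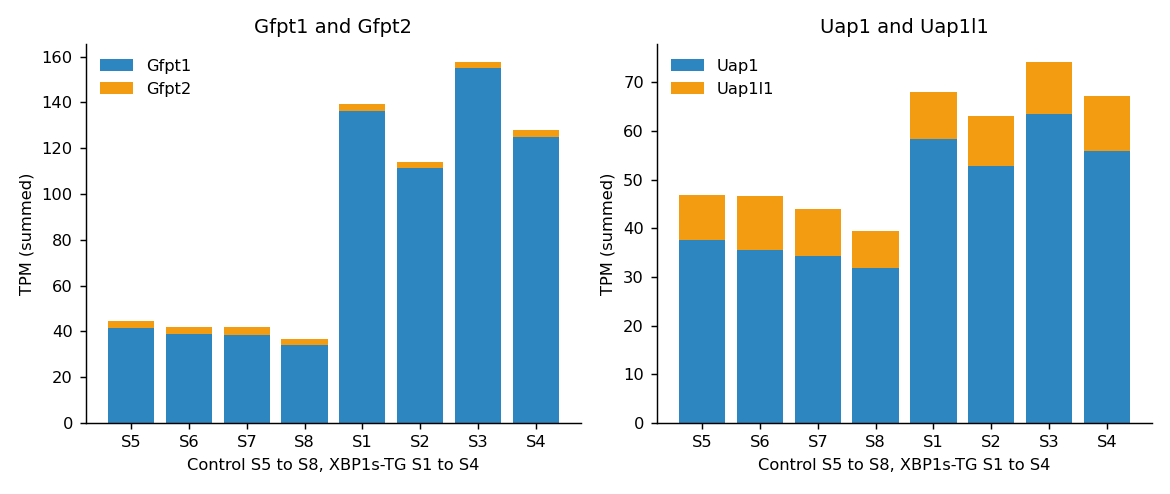
Summed TPM of Gfpt1 with Gfpt2 (left) and of Uap1 with Uap1l1 (right) in each library, bars starting at 0. The Gfpt2 layer is thin in all 8 libraries and does not grow with the Gfpt1 layer, and Uap1l1 is a larger share of its pair.

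Gnpnat1 (ENSMUSG00000037722, chromosome 14, 45376334 to 45388802, minus strand), which acetylates glucosamine 6-phosphate, rose less than Gfpt1. Its level was 26.0, 22.2, 29.8 and 26.8 TPM in S1 to S4 and 14.7, 13.4, 13.6 and 12.5 TPM in S5 to S8, with no overlap. The mean of 26.2 ± 3.13 TPM was 1.93 times the Control mean of 13.5 ± 0.928 TPM (SD, n = 4 each). The log2 fold change was 0.76 (standard error 0.0752, 95% interval 0.60 to 0.93, limma adjusted p = 4.47e-05), and 0.68 without S1 and S3. The whole gene as the table places it, 12469 bases, lies inside Styx on the opposite strand. Styx reached 9.89 TPM at most in any library. Whether strand was used in counting is not stated, so reads of the 2 genes may not be fully separated.

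Pgm3 (ENSMUSG00000056131, chromosome 9, 86554377 to 86571842, minus strand), the phosphoglucomutase of GlcNAc, was among the lowest of the 8 in Control. It was at 28.2, 22.3, 29.0 and 25.2 TPM in S1 to S4 and at 7.95, 7.18, 7.09 and 5.99 TPM in S5 to S8. No Control library reached the lowest XBP1s-TG library. The mean of 26.2 ± 3.05 TPM was 3.71 times the Control mean of 7.05 ± 0.808 TPM (SD, n = 4 each), the highest ratio of means among the 8. The log2 fold change was 1.56 (standard error 0.0834, 95% interval 1.37 to 1.75, limma adjusted p = 2.15e-06), and 1.44 without S1 and S3. With all values under 4 on the log2 scale raised to 4, it was 0.76, since the Control values of the gene lie under that floor. Dop1a overlaps 1547 bases of Pgm3 on the opposite strand and reached 10.9 TPM.

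Uap1 (ENSMUSG00000026670, chromosome 1, 170141938 to 170174957, minus strand) makes UDP-GlcNAc itself. Its level was 58.5, 52.8, 63.5 and 55.9 TPM in S1 to S4 and 37.5, 35.6, 34.4 and 31.7 TPM in S5 to S8. The groups again did not overlap, at a mean of 57.7 ± 4.53 TPM against 34.8 ± 2.42 TPM (SD, n = 4 each), a ratio of 1.66. The log2 fold change on the normalized scale was 0.57 (standard error 0.0514, 95% interval 0.45 to 0.69, limma adjusted p = 2.80e-05), which passes the adjusted p and falls just short of the 1.5-fold limit, 0.58 on this scale. Uap1 therefore does not count among the genes that rose here, but it did with no normalization beyond TPM (0.70), with median centring (0.62), with voom on the recovered reads (0.60) and without S2 (0.60) or S5 (0.60). With a pseudocount of 0.1 it was also called (0.59). Without S1 and S3 it was 0.51 (limma adjusted p = 0.000484).

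Uap1l1 (ENSMUSG00000026956, chromosome 2, 25359889 to 25365682, minus strand) was at 9.54, 10.2, 10.7 and 11.3 TPM in S1 to S4 and at 9.34, 11.0, 9.62 and 7.62 TPM in S5 to S8. The groups overlapped, with S5 and S8 under every XBP1s-TG library and S6 close to the top of that group. The mean was 10.4 ± 0.733 TPM against 9.40 ± 1.39 TPM (SD, n = 4 each), a difference of 0.13 on the log2(TPM + 2) scale (exact two-sided permutation test, p = 0.257). Without the limit its log2 fold change was 0.06 with a 95% interval of -0.11 to 0.23. The changes of Uap1 and Uap1l1 differed by 0.57 on the log2 scale (exact permutation test, p = 0.0286, adjusted p = 0.0429), and Uap1 held 84.7% ± 1.35 of their summed TPM in XBP1s-TG against 78.8% ± 1.94 in Control.

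**Figure D3:**
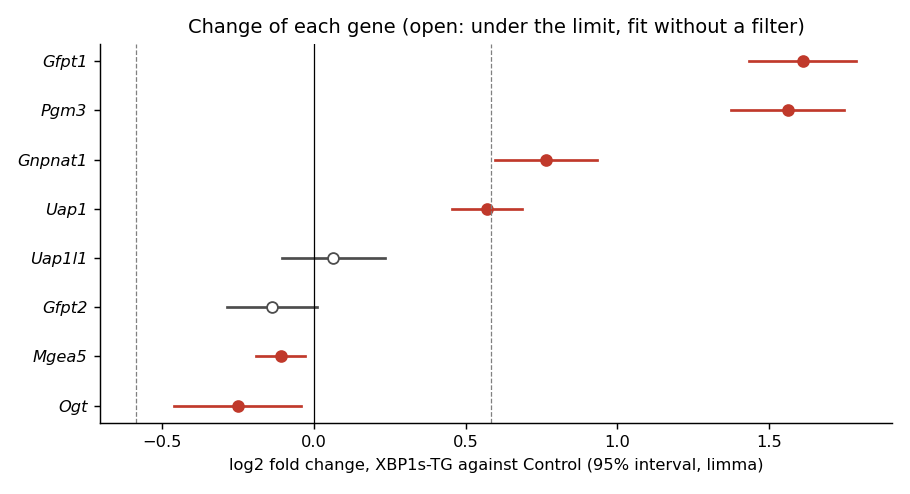
Log2 fold change of each gene, XBP1s-TG against Control, with its 95% interval from limma, where dashed lines mark 1.5-fold and open points the 2 genes under the limit, fitted without it. Gfpt1 (1.61) and Pgm3 (1.56) stand apart from Gnpnat1 (0.76) and Uap1 (0.57), and the other 4 lie between -0.25 (Ogt) and 0.06 (Uap1l1).

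Ogt (ENSMUSG00000034160, chromosome X, 101640060 to 101684351, plus strand), the only transferase that adds O-GlcNAc in cytosol and nucleus, was not called. Its level was 104, 112, 90.6 and 94.3 TPM in S1 to S4 and 116, 114, 119 and 89.7 TPM in S5 to S8. The groups overlapped through S8, the lowest of all 8 libraries. The mean was 100.1 ± 9.49 TPM against 109.7 ± 13.5 TPM (SD, n = 4 each). The log2 fold change was -0.25 (standard error 0.0932, 95% interval -0.46 to -0.04, limma adjusted p = 0.0455), under 1.5-fold. The adjusted p ranged from 0.0106 to 0.299 over 21 alternatives and stayed under 0.05 in 8 of them. Those 8 include calling by the adjusted p alone, which repeats the main fit. With no normalization beyond TPM the log2 fold change was -0.13 (limma adjusted p = 0.299), and without S1 and S3 it was -0.18 (limma adjusted p = 0.221). Of the 8 fits that each leave out 1 library, 2 had an adjusted p under 0.05. These were the fit without S8 (-0.32, limma adjusted p = 0.0106) and the fit without S2 (-0.32, limma adjusted p = 0.0143).

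Both groups held libraries with Xist, the transcript of the inactive X chromosome, above 1 TPM (S3 and S4, S7 and S8). The 4 libraries with Xist had 90.6, 94.3, 119 and 89.7 TPM of Ogt, itself X-linked, and the 4 without it 104, 112, 116 and 114 TPM. With Xist status as a term in the fit, the limma adjusted p of Ogt was 0.0239. Xist status was split evenly in both groups, so this term cannot change the log2 fold change of -0.25.

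Mgea5 (ENSMUSG00000025220, chromosome 19, 45750261 to 45783520, minus strand), which encodes O-GlcNAcase, was the most abundant of the 8 and the one that varied least. It was at 147.0, 146.7, 152 and 149.7 TPM in S1 to S4 and at 154, 152, 146.5 and 148 TPM in S5 to S8. The groups overlapped over most of their range. The mean was 148.9 ± 2.65 TPM against 150.2 ± 3.48 TPM (SD, n = 4 each). The log2 fold change was -0.11 after quantile normalization (standard error 0.0359, 95% interval -0.19 to -0.03, limma adjusted p = 0.0277) and -0.01 without it (limma adjusted p = 0.811). Between these 2 scalings the median log2 fold change of all tested genes differed by 0.10. The changes of Ogt and Mgea5 differed by -0.11 on the log2(TPM + 2) scale (exact permutation test, p = 0.314).

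The order of the levels differed between the groups. In Control it ran from Mgea5 through Ogt, Gfpt1, Uap1, Gnpnat1, Uap1l1 and Pgm3 to Gfpt2, and each gene was above the next in 4 of 4 libraries, although the ranges of Gfpt1 and Uap1 and those of Uap1l1 and Pgm3 overlapped. In XBP1s-TG, Gfpt1 came second, above Ogt in 3 of 4 libraries and under Mgea5 in 3 of 4. Gnpnat1 and Pgm3 were level there, each above the other in 2 of 4 libraries. The order of Gfpt1, Ogt and Mgea5 in XBP1s-TG is thus not fixed beyond their spread.

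The transcripts of the later steps were also set against Gfpt1 within each library. Relative to Gfpt1, Pgm3 stood at 0.199 ± 0.00852 in XBP1s-TG and 0.184 ± 0.00678 in Control, with overlapping ranges. Gnpnat1 stood at 0.199 ± 0.0108 against 0.356 ± 0.00808 and Uap1 at 0.440 ± 0.0278 against 0.914 ± 0.0165 (ratios of TPM, SD, n = 4 each), both without overlap. No test was run on these ratios.

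Within XBP1s-TG, Gfpt1, Pgm3 and Uap1 had the library order of Xbp1, highest in S3, then S1, S4 and S2. Gnpnat1 differed only in the place of S1 and S4. The same order was found for 16.2% of all tested genes, 69.2% of those that rose and 0.784% of those that fell, so it is not particular to the pathway. Ogt had S2 highest and S3 lowest. S3 and S1, at the top of this order, are also the 2 libraries with the lowest choroid plexus sums, and the part of this in the order was not tested.

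**Figure D4:**
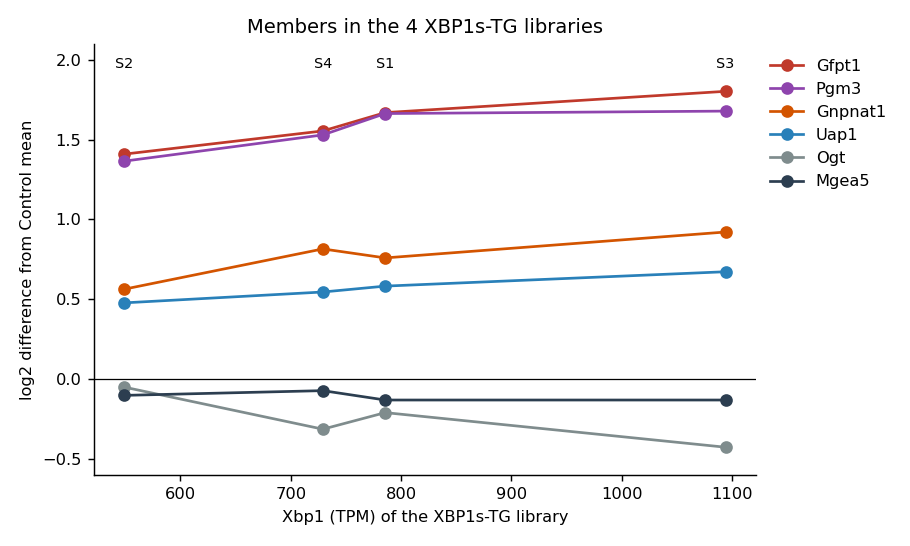
Difference of each tested gene from its Control mean (normalized log2 scale) in the 4 XBP1s-TG libraries, plotted at the Xbp1 level of the library in TPM, with lines joining the 4 points of a gene. Gfpt1 spans 1.41 in S2 to 1.80 in S3 and Pgm3 lies close to it, while Ogt and Mgea5 lie under 0 in all 4.

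The 5 tested genes whose pattern over the 8 libraries was nearest to that of Gfpt1 were Os9, Pgm3, Emcn, Arfgap3 and Plcxd1. Nearness was the root mean square difference of the log2 values, each gene centred on its Control mean, and it was 0.0361 for Os9 and 0.0494 for Pgm3. Os9, a lectin of ER-associated degradation, was at 334 ± 48.0 TPM against 98.4 ± 6.01 TPM, and its log2 fold change was 1.63. Arfgap3, a GTPase-activating protein of the Golgi (0.0632), was at 73.9 ± 12.4 TPM against 20.9 ± 1.72 TPM. Emcn, the endothelial sialomucin endomucin (0.0595), was at 13.0 ± 1.82 TPM against 2.60 ± 0.413 TPM, and Plcxd1 (0.0682) at 22.6 ± 3.36 TPM against 5.93 ± 1.04 TPM (SD, n = 4 each). Pgm3, Emcn and Plcxd1 had 0 Control libraries above the limit, and Emcn passed it in 1 XBP1s-TG library, so these 3 entered the search through the group where they are high. Gfpt2 and Uap1l1, under the limit, were not among the genes searched.

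Other genes of amino sugar metabolism were followed in 6 lists of 33 genes, of which 27 were tested, 3 rose and 0 fell (5.61% and 2.75% of all tested genes), with a median log2 fold change of 0.03 beside -0.04 for all tested genes. The 3 that rose, Nans, Cmas and Dpagt1, lie downstream of UDP-GlcNAc. Nans (log2 fold change 1.01, standard error 0.1001, limma adjusted p = 4.57e-05) and Cmas (0.97, standard error 0.0768, limma adjusted p = 1.36e-05) make and activate sialic acid, which starts from UDP-GlcNAc. Nans was at 20.4, 16.7, 24.8 and 19.0 TPM in S1 to S4 and 8.01 to 8.67 TPM in Control, and Cmas at 109, 86.2, 121 and 102 TPM against 46.5 to 48.6 TPM. Both were highest in S3 and lowest in S2, with no overlap. Nans passed the limit in its 4 XBP1s-TG libraries and in 0 Control libraries, and with all values under 4 on the log2 scale raised to 4 its log2 fold change was 0.41, short of 1.5-fold. Gne, which takes UDP-GlcNAc into this branch, had a log2 fold change of 0.48 (limma adjusted p = 0.000354), short of 1.5-fold, and Nanp was under the limit.

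Dpagt1, which moves GlcNAc-phosphate from UDP-GlcNAc onto dolichol to begin the N-glycan precursor, was at 40.5, 34.8, 51.0 and 38.0 TPM in S1 to S4 and 16.2, 18.5, 17.9 and 16.0 TPM in S5 to S8. Its log2 fold change was 1.05 (standard error 0.0928, limma adjusted p = 2.48e-05). Alg14, a subunit of the next transferase, was at 0.22 (limma adjusted p = 0.0318) and Eogt, the O-GlcNAc transferase of the ER, at 0.23 (limma adjusted p = 0.0091), both short of 1.5-fold, so 1 of the 3 tested users of UDP-GlcNAc in the ER rose. Of 3 tested genes that interconvert UDP-sugars, 0 rose and 0 fell. Ugdh, which makes UDP-glucuronate, was at 0.56 (limma adjusted p = 8.74e-05), short of 1.5-fold, Ugp2, which makes UDP-glucose, at -0.30 (limma adjusted p = 0.00105), and Uxs1 at 0.04. Ugdh passed the limit in its 4 XBP1s-TG libraries and in 0 Control libraries, so it was tested through the group where it is high. Ugdh was called with no normalization beyond TPM, with voom on the recovered reads, with a pseudocount of 1 (0.59) or 0.1 (0.63) and without S2.

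The supply of substrate held no gene that rose or fell among 7 tested, and its median log2 fold change was -0.15, or -0.03 with no normalization beyond TPM. Hk1, the main brain hexokinase, was at -0.23 (limma adjusted p = 0.00209), the phosphofructokinase subunits Pfkl at -0.33 (0.00167) and Pfkp at -0.38 (0.00142), and Gpi1, the glucose 6-phosphate isomerase, at -0.15 (0.0357). With Pfkm, 5 of the 7 passed the adjusted p, and 3 of them (Hk1, Pfkl and Pfkp) did so with no normalization beyond TPM. Hk2, named after its values were seen, was under the limit, at 9.92, 7.76, 11.8 and 9.02 TPM in S1 to S4 and 3.59, 3.82, 3.91 and 4.54 TPM in S5 to S8 (exact permutation test of 4 against 4, p = 0.0286). Fitted without the limit, Hk2 was called higher (log2 fold change 0.90, limma adjusted p = 0.00196).

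**Figure D5:**
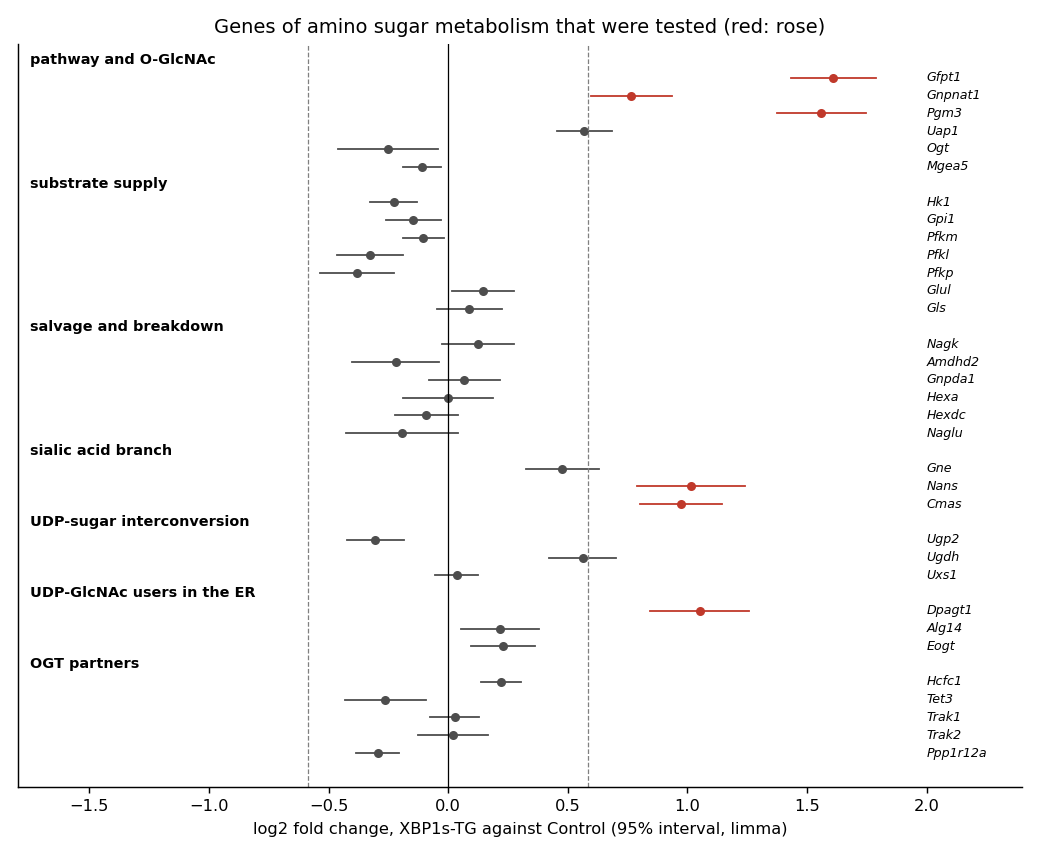
Log2 fold change with the 95% interval from limma for the tested genes of the pathway and of the 6 other lists, red where a gene rose and dashed lines at 1.5-fold. The red points outside the pathway are Nans, Cmas and Dpagt1, and substrate supply lies on both sides of 0 with none past 1.5-fold.

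Salvage and breakdown of GlcNAc also held no gene that rose or fell among 6 tested. The median log2 fold change was -0.05, and 0.12 over 5 genes with no normalization beyond TPM. Amdhd2, the deacetylase of GlcNAc 6-phosphate, was at -0.22 (limma adjusted p = 0.0422), and it was under the limit with no normalization beyond TPM. In the main fit Amdhd2, like Naglu, passed the limit in 1 Control library and in 0 XBP1s-TG libraries. Nagk, the GlcNAc kinase, was at 0.13, Hexdc at -0.09 and Naglu at -0.19, and none of these 3 passed the adjusted p. Among 5 tested partners or substrates of Ogt, 0 rose and 0 fell (median 0.02). Ppp1r12a, a myosin phosphatase subunit, was at -0.30 (limma adjusted p = 0.000253), Hcfc1, a transcriptional co-regulator cleaved by Ogt, at 0.22 (limma adjusted p = 0.00103), Tet3 at -0.26 (limma adjusted p = 0.0152) and Trak1 at 0.03.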

How the data were processed

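RNA of hippocampus (500 ng per library, KAPA Stranded mRNA-Seq Kit) was sequenced by the authors, checked with FastQC, trimmed with Trimmomatic, mapped to GRCm38 and counted per gene with CLCbio Genomics Workbench. The values deposited by the authors are TPM per gene and library, scaled for length and library and not log transformed. The table also holds group means and p-values of the authors, which entered none of the fits or tests here. The limit of 4 on the normalized log2 scale, however, was set from results of the authors. It is the smallest group mean in their list of changed genes, and it decided which genes were tested. The columns S1 to S8 of the table are assigned to the groups XBP1s-TG and Control but not to single mice. The p-values judge the difference between the groups against the variation between these libraries.

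For the comparison across genes, log2(TPM + 2) was quantile normalized over the libraries (limma 3.58.1, R 4.3.3). Linear models with a moderated, trended variance were fitted by limma to genes exceeding 4 on this normalized scale in 1 or more libraries. The 2 genes under the limit, and the gene pairs on log2(TPM + 2), were compared by exact two-sided permutation. Whole reads were recovered from the TPM values for 29233 of 29237 genes above 0, within 0.001, and voom on these reads called 571 genes higher and 330 lower. One read per kilobase was worth 0.0604 to 0.0900 TPM, and counting error is part of the spread between libraries. Promoter sequences are from RefSeq (GRCm38.p6), gene positions from the deposited table and overlaps from GENCODE.

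The 8 genes and the lists were chosen with earlier results of these data known. The genes named are the 8, Xbp1, Xist, in each list the up to 4 genes with the smallest adjusted p and every gene called, and the 5 genes most like Gfpt1. Neurod6, Slc17a7, Styx and Dop1a were named after their values were seen, as were Pfkm, Hk2 and Nanp. A few genes of the lists are not reported here.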

Additional observations from a re-analysis of the deposited data

How the results depend on the processing

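Gfpt1 kept its direction and its call in all 21 alternatives (log2 fold change 1.48 to 1.73), Gnpnat1 in the 20 that tested it (0.68 to 0.85) and Pgm3 in the 20 that tested it (0.76 to 1.79). Alternatives that change only the filter or the test, or add Xist status, cannot change the log2 fold change of a tested gene. Calling by the adjusted p alone reuses the main fit, so it cannot lose a call. The number of the 8 genes that rose was 3 or 4 in all alternatives but one, the stricter filter above 5, where it was 1 because Pgm3 and Gnpnat1 were no longer tested. It was 4 where Uap1 was called. By the adjusted p alone 2 of the genes (Ogt and Mgea5) counted as lower, and 2260 of all tested genes as higher and 2729 as lower. With no normalization beyond TPM, 709 genes rose and 150 fell. Without S1 and S3, 407 rose and 152 fell.

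Leaving out each library in turn gave 455 to 594 genes that rose and 191 to 333 that fell, and 3 to 4 and 0 of the 8. The difference between the changes of Gfpt1 and Gfpt2 was then 1.74 to 1.90, that of Uap1 and Uap1l1 0.51 to 0.61 and that of Ogt and Mgea5 -0.20 to -0.06. Without S1 and S3 the first was 1.69 and the second 0.45, each at an adjusted p of 0.1 by the exact permutation test, where 2 libraries against 4 cannot give an unadjusted p under 0.0667. Mgea5 passed an adjusted p of 0.05 in 13 of 21 alternatives, and those 13 include the adjusted p alone, which repeats the main fit.

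No paired analysis was possible because the columns of the table carry no replicate numbers. Depth bears most on Gfpt2, with its 174 to 273 reads per library. TPM are relative to the library, so a change of all RNA per cell cannot be seen.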

Other observations

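Among the Control libraries, S8 had the lowest TPM for 7 of the 8 genes, Mgea5 being the exception, and 60.2% of all tested genes had their lowest Control value there. In XBP1s-TG, S2 was the lowest library for 6 of the 8 genes, and it also held the least Xbp1 of the group. Gfpt2, Ogt and Uap1l1 did not have their highest XBP1s-TG value in S3, the library with most Xbp1, while the other 5 did.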
